A study of Homo sapiens with 6 samples.

Results

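The nuclear-encoded subunits of the respiratory chain were examined in Meg-01 cells with and without propionate (C3). The genes were chosen by symbol, as the protein-coding rows named for NDUF, SDH, UQCR, COX4 to COX8 and ATP5 subunits together with CYC1 and CYCS, without the NDUFAF assembly factors. The rule found 91 of the 58735 genes in the count table. Of these, 38 belonged to complex I, 4 to complex II, 10 to complex III, 19 to complex IV and 19 to complex V, and CYCS was kept apart as the mobile carrier. NDUFA4 and NDUFA4L2 were counted in complex IV, where the NDUFA4 protein is now placed.

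Meg-01 is an established human megakaryoblastic cell line, and C3 is a short-chain fatty acid released by gut bacteria. The control group was 3 libraries of untreated cells, and the C3 group was 3 libraries of cells given 500 µM sodium propionate for 48 h by the labels, while the methods also name a shorter incubation before RNA extraction. Both groups are the same line, and the replicates were described as technical, so the p-values measure the spread between these libraries and need not cover that between cultures. Totals were between 16159449 and 22821722 counts, of which the subunits took 1.29% to 1.47%. Of 15 megakaryocyte markers 13 were detected and tested, ITGA2B at 12640 normalized counts, while PF4 and GP1BB were at 0. The summed level of the 15 per length was 1083 to 1193 TPM, a count per length and library total, in control and 1156 to 1172 TPM in C3 libraries. Of the 13, GP1BA (log2 fold change -0.49), NFE2 (-0.38) and TUBB1 (-1.36) fell and ITGB3 (0.34) rose. Sums of markers of other lineages were lower, with 76.9 to 96.2 TPM for 10 erythroid, 61.4 to 69.8 TPM for 9 granulocyte or monocyte, 28.1 to 43.3 TPM for 6 lymphoid (MS4A1 at 0) and 19.7 to 31.1 TPM for 6 fibroblast genes. In the last 2 lists the groups did not overlap (28.1 to 30.1 TPM in control against 32.8 to 43.3 TPM in C3 for lymphoid, and 26.4 to 31.1 against 19.7 to 20.2 TPM for fibroblast genes). The lower fibroblast sum was that of LUM (log2 fold change -0.66), while the other 3 tested genes of that list were positive and COL1A1 rose (1.89). COL1A1 had 5.88, 5.30 and 2.39 normalized counts in control and 13.7, 10.5 and 26.7 in C3 libraries. With so few counts in control it was tested only through its C3 libraries. In the erythroid list HBA2 (log2 fold change -0.68) fell and ALAS2 (0.56) rose. Among granulocyte or monocyte genes LYZ (-0.51) fell and ITGAM (0.47) rose. The part of these markers in the results was not tested.

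Complexes I to IV pass electrons from NADH and succinate to oxygen. Complexes I, III and IV pump protons across the inner mitochondrial membrane, and complex V, the ATP synthase, lets the protons flow back to make ATP. Complex I takes electrons from NADH, complex II from succinate, both hand them to ubiquinone, complex III passes them on to cytochrome c (CYCS), and complex IV reduces oxygen. Most subunits are encoded in the nucleus and imported, whereas a small number are made inside the organelle from mitochondrial DNA. Propionate itself is broken down in mitochondria through propionyl-CoA to succinyl-CoA, an intermediate of the tricarboxylic acid cycle.

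C3 treatment went with slightly lower mRNA of many of these subunits. Of the 91 genes, 81 had at least 10 counts in at least 3 libraries and were tested. In the quasi-likelihood test of edgeR, with p-values adjusted over all 15078 tested genes (Benjamini-Hochberg) and read at 0.05, 18 of the 81 fell and 0 rose. At an unadjusted p-value below 0.05, 35 were lower and 2 higher, beside 2314 lower and 2533 higher of all 15078 tested genes. DESeq2 also called 18 subunits lower and 0 higher. The 18 are 22.2% of the tested subunits, and among all tested genes 8.77% fell and 11% rose. Part of that gap goes with abundance. All 18 lie among the 60 subunits with a mean normalized count (a count scaled to a common library size) of at least 1000, of which they are 30%, beside 17.1% among the 3914 genes of that abundance in the whole table. None of the 21 subunits below 1000 was called, and 3 of them were lower at an unadjusted p-value below 0.05.

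The falls were small. The changes lay between -11.9% and -26%, with a median of -14.6%, and only NDUFB2 passed the gates that define differentially expressed genes (DEGs) in the study, an adjusted p under 0.01 together with a fold of over 1.3, read here in either direction as a ratio of the higher to the lower group. Of all tested genes, 1.47% passed these gates as lower and 5.05% as higher, and no subunit passed them as higher. The median log2 fold change over the 81 subunits was -0.13 (-8.38%), with 64 negative and 17 positive values (median -0.083 without control replicate 3), whereas over all tested genes it was 0.0021. For subunits of at least 1000 counts the median was -0.15, and for all genes of that abundance -0.055. All 3 C3 libraries lay below all 3 control libraries in 23 of the 81 subunits and above them in 1 (NDUFV2, a row of few counts). Among all tested genes 16.9% lay below and 17.5% above. At 1000 counts or more, 20 of the 60 subunits lay below and 0 above, beside 1126 below and 477 above of the 3914 genes of that abundance. Abundant genes in general thus often lay below, and the subunits were not tested against them. In bulk RNA, a smaller number of such cells and less of the mRNA in each cell cannot be told apart.

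**Figure D1:**
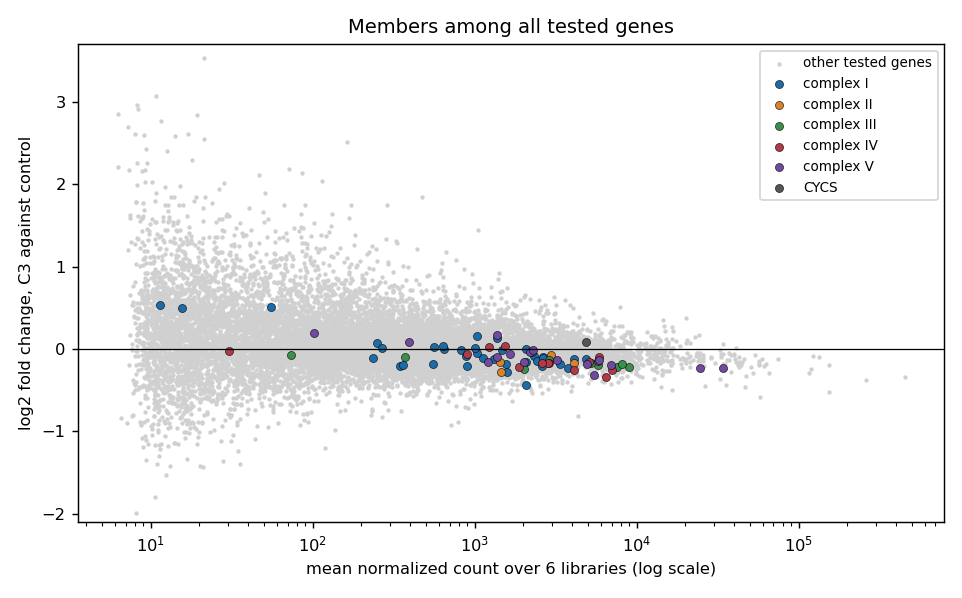
The log2 fold change (C3 against control, vertical axis) of each tested gene is plotted against its mean normalized count over 6 libraries (log axis). Grey points are other tested genes and coloured points the 81 tested subunits, most of which lie just below 0 on the right of the cloud, at 1000 counts or more.

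The libraries differed in how far they showed this. Relative to each gene's control mean, the median log2 level of the 81 subunits was -0.069, -0.031 and 0.096 in control replicates 1 to 3 and -0.047, -0.21 and -0.13 in C3 replicates 1 to 3. C3 replicate 1 thus lay within the range of the control libraries. It was the highest C3 library for 58 of the 81 subunits and for 16 of the 18 that fell, beside 41.4% of all tested genes. Control replicate 3 was the highest control library for 60 of the 81. Without C3 replicate 1, 38 subunits fell, the 18 among them. The number was 7 without control replicate 2, 5 without C3 replicate 2 and 4 without C3 replicate 3. Of all tested genes 12.7% were lower without C3 replicate 1, and 4.69%, 5.43% and 4.02% in the other 3 fits, in this order. In each fit without a C3 replicate 80 subunits were tested, so 5 and 4 of them are near the share of all genes. With counts scaled by library size alone instead of TMM factors (trimmed mean of M values), 8 of 81 subunits fell, beside 4.04% of all tested genes. That scaling moved the median of all genes to 0.076 and that of the subunits to -0.053. All 18 log2 fold changes remained negative in each of the 17 alternative fits. NDUFB2, COX6B1, ATP5MC2 and SDHC kept an adjusted p-value below 0.05 in all of them, NDUFS3 lost it without C3 replicate 3 and COX4I1 without C3 replicate 2 or 3. Each of the other 12 lost it without control replicate 2, without C3 replicate 2 and without C3 replicate 3.

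**Figure D2:**
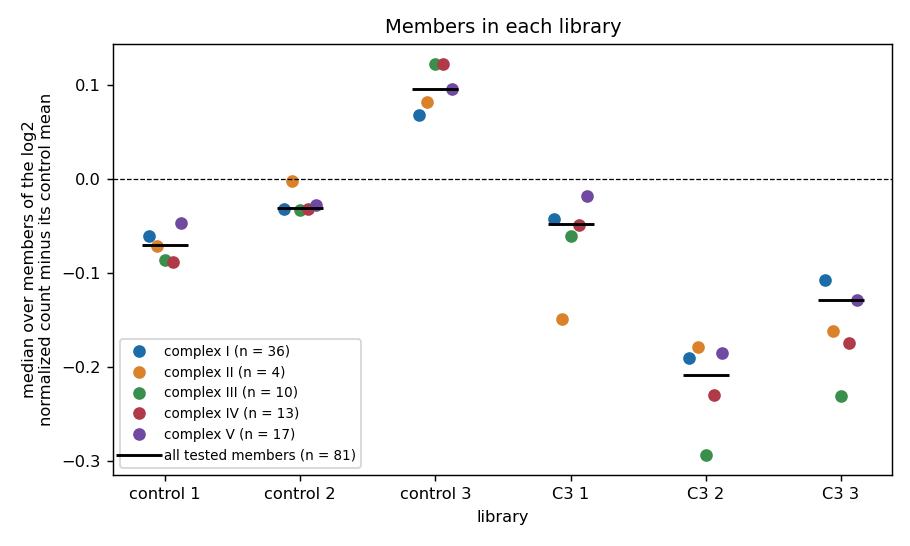
Median over the tested subunits of each complex (coloured points) and over all 81 (black bars) of the log2 normalized count minus its control mean (vertical axis), in each of the 6 libraries. C3 replicate 1 has a median of -0.047 over all 81, between those of control replicates 1 and 2, and C3 replicates 2 and 3 lie below all control libraries.

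Complex I, the NADH dehydrogenase, had 36 of its 38 subunits tested, of which 5 fell, among them NDUFB2, NDUFS3, NDUFB7 and NDUFA8, and 0 rose. The number that fell was 12 without C3 replicate 1, 1 without C3 replicate 3, and 2 without control replicate 1, control replicate 2 or C3 replicate 2. Its median log2 fold change was -0.10, and it was -0.027 without control replicate 3 and -0.043 without C3 replicate 2. The 7 core subunits encoded in the nucleus, which carry the flavin and the iron-sulfur clusters or hold the quinone site, had a median of -0.18. The 29 tested accessory subunits, which surround and stabilise the core, had a median of -0.088.

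NDUFB2 (ENSG00000090266), an accessory subunit of the membrane arm, lies on chromosome 7 of GRCh38, from 140690777 to 140722790, on the forward strand. Its normalized counts were 2348, 2329 and 2527 in control and 2002, 1591 and 1742 in C3 libraries. The groups did not overlap, and all C3 libraries were well below the lowest control library. The log2 fold change of -0.43 (standard error, SE, 0.072, adjusted p = 0.00011 by edgeR) was the largest fall among the 81 subunits. Genes on the opposite strand share 35.1% of its exon bases, and because no strand setting is given, reads there could not be assigned with certainty.

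NDUFS3 (ENSG00000213619), a core subunit of the arm that reaches into the matrix, had 1713, 1697 and 1792 normalized counts in control libraries. In C3 libraries it had 1610, 1365 and 1320, all below the controls, with a log2 fold change of -0.28 (SE 0.071, adjusted p = 0.0064). NDUFB7, the most abundant complex I subunit per length, had 4102, 4220 and 3951 in control and 4078, 3131 and 3272 in C3 libraries. Here C3 replicate 1 lay inside the control range, and the log2 fold change was -0.23 (adjusted p = 0.033). NDUFA8, an accessory subunit on the face toward the intermembrane space, went from 1669 ± 37.6 to 1471 ± 79.6 (SD, n = 3 libraries each), a log2 fold change of -0.18 (adjusted p = 0.045).

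Other core subunits did not pass the test. NDUFS7, which carries the last iron-sulfur cluster of the chain, was at -0.21 (adjusted p = 0.051), and its groups did not overlap. The values were -0.18 for NDUFS8, -0.12 for NDUFV1, the flavin subunit that takes electrons from NADH, and -0.10 for NDUFS1. NDUFV2 was the only subunit of the 81 with all C3 libraries above all control libraries, but its row held few counts. Its raw counts were 8, 9 and 9 in control and 12, 16 and 15 in C3 libraries. The row met the filter of at least 10 counts in at least 3 libraries only through the C3 group. Its separation thus goes with the filter and is not read as a rise.

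Low rows of complex I need care in reading. NDUFV2 had a mean normalized count of 11.5, NDUFA13 of 15.6 and NDUFB8 of 55.0, and NDUFA7 (mean 5.78) was not tested, although all are constitutive parts of the complex. Their canonical transcripts (one reference transcript per gene) share 90.0%, 83.9%, 72.0% and 77.9% of exon bases with another row of the same strand, among them readthrough genes that join neighbouring transcripts. A row for an NDUFV2 pseudogene held 136 normalized counts. How reads on shared or multiple positions were counted is not given in the sources used here. The log2 fold changes of 0.53 (SE 0.42), 0.50 (0.40) and 0.51 (0.24) for NDUFV2, NDUFA13 and NDUFB8 may not describe these mRNAs. They were the largest positive values of all 81, and none was called (adjusted p of 0.41, 0.42 and 0.14 by edgeR).

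The other uncalled accessory subunits with more than 200 counts lay between -0.21 (NDUFA9) and 0.15 (NDUFA5). NDUFB9 had 2047, 2077 and 2109 in control and 2094, 2085 and 2050 in C3 libraries, a log2 fold change of -0.00 with a 95% interval of -0.12 to 0.12. Thus subunits of one complex and of like abundance, NDUFB2 and NDUFB9, had intervals that do not overlap (-0.58 to -0.29 for NDUFB2), a difference described here and not tested.

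**Figure D3:**
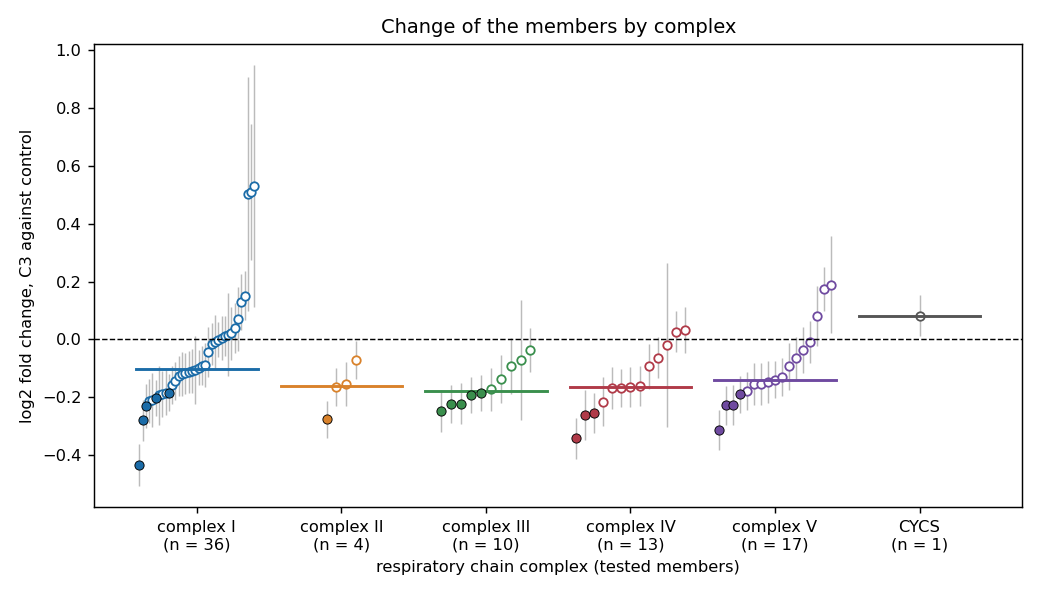
Log2 fold change (C3 against control, vertical axis) of each tested subunit with its standard error (grey bars), ordered within complexes I to V and CYCS, with the complex median as a horizontal line. Filled points are the 18 with an adjusted p-value below 0.05; all lie below 0, and complex III has 5 of 10 filled.

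Complex II, succinate dehydrogenase, is encoded in the nucleus alone and also works in the tricarboxylic acid cycle. Of its 4 subunits, SDHC fell, and without C3 replicate 1 the number was 2. SDHC (ENSG00000143252, chromosome 1, from 161314381 to 161363206, forward strand), a membrane anchor that binds ubiquinone, had 1515, 1589 and 1687 normalized counts in control and 1326, 1300 and 1329 in C3 libraries. The C3 libraries lay close together and below all controls, with a log2 fold change of -0.28 (SE 0.065, adjusted p = 0.0032).

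SDHA, the flavoprotein that oxidises succinate, had 4314, 4439 and 4285 in control and 4294, 3649 and 3699 in C3 libraries. SDHD, the other anchor, had 1441, 1493 and 1600 in control and 1163, 1479 and 1419 in C3 libraries. SDHB, the iron-sulfur subunit, had 2782, 3021 and 3267 in control and 2956, 2807 and 2863 in C3 libraries. The groups overlapped in all 3, with log2 fold changes of -0.16, -0.16 and -0.07 and adjusted p-values of 0.084, 0.16 and 0.49. The 95% interval of SDHB reached from -0.20 to 0.06, so that its change and that of SDHC (-0.40 to -0.15) overlap. Rows of SDHA pseudogenes held 382 normalized counts beside 4113 of SDHA itself.

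Complex III, the cytochrome bc1 complex, had 5 falls among 10 subunits, and all 10 values were negative, at a median of -0.18 (-0.12 without control replicate 3). These calls did not hold without single libraries, with 0 falls without control replicate 2, C3 replicate 2 or C3 replicate 3, 2 without control replicate 3 and 3 without control replicate 1. Scaling by library size alone also left 0. CYC1, the cytochrome c1 haem protein that hands electrons to cytochrome c, had 9752, 9993 and 9300 in control and 8972, 7693 and 8236 in C3 libraries. UQCRFS1, the Rieske iron-sulfur protein, had 5951, 6118 and 6485 in control and 5492, 5508 and 5231 in C3 libraries. The groups of both were apart, and their log2 fold changes were -0.22 (SE 0.066, adjusted p = 0.018) and -0.19 (0.062, adjusted p = 0.027). With the mitochondrially encoded cytochrome b these are the subunits that carry electrons.

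UQCRC1 and UQCRC2, the large core proteins on the matrix side, went from 8115 ± 239 to 6960 ± 788 and from 8586 ± 522 to 7553 ± 202 (SD, n = 3). The log2 fold changes were -0.22 and -0.18 (adjusted p of 0.026 and 0.041), with groups apart in both. UQCR10, a small subunit next to the Rieske protein, had 2025, 2212 and 2363 in control and 2065, 1784 and 1712 in C3 libraries, so that C3 replicate 1 overlapped control replicate 1, and the log2 fold change was -0.25 (adjusted p = 0.016). Another gene on the opposite strand covers 24.5% of its exon bases.

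UQCRH, the hinge protein and the most abundant complex III mRNA per length, had 5170, 5306 and 6059 in control and 5535, 4506 and 4641 in C3 libraries. Its log2 fold change of -0.17 was not called (adjusted p = 0.11), nor were those of UQCRQ (-0.14), UQCR11 (-0.09) and UQCRB (-0.04). UQCRHL, a copy of UQCRH with 272 of 276 coding bases identical, had 75.0 ± 18.9 in control and 71.6 ± 18.1 in C3 libraries, and reads of one may be counted for the other. UQCRFS1 has 3 pseudogene rows, which held 365 normalized counts.

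Complex IV, cytochrome c oxidase, had 13 of 19 genes tested, of which 3 fell (COX6B1, COX8A and COX4I1), at a median of -0.16 (-0.089 without control replicate 3). The number was 8 without C3 replicate 1 and 1 without C3 replicate 2 or 3. COX6B1 (ENSG00000126267, chromosome 19, from 35648323 to 35658782, forward strand) encodes a subunit on the side of the intermembrane space where cytochrome c docks. It had 6891, 7280 and 7483 normalized counts in control and 6411, 5373 and 5309 in C3 libraries, all C3 libraries below the controls. The log2 fold change was -0.34 (SE 0.070, adjusted p = 0.0010).

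COX4I1, the ubiquitous form of subunit 4 at which ATP regulates the enzyme, had 7499, 7566 and 8030 in control and 7252, 6064 and 6061 in C3 libraries. The groups were apart, though C3 replicate 1 was near control replicate 1, at a log2 fold change of -0.25 (SE 0.070, adjusted p = 0.011). COX8A, the ubiquitous form of subunit 8, had 4886, 4884 and 3666 in control and 4183, 3656 and 3403 in C3 libraries. Control replicate 3 fell inside the C3 range, the log2 fold change was -0.26 (adjusted p = 0.034), and other genes of the same strand share 35.4% of its exon bases.

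Tissue-specific forms of complex IV subunits were near or at 0 in these cells. COX4I2 and COX6A2, the second forms of subunits 4 and 6A, had 0 counts in all 6 libraries. COX8C had 2 counts over 6 libraries, COX7A1 14, COX6B2 27 and COX7B2 42, and none of the 6 was tested. Thus nearly all mRNA of subunits 4, 6A, 6B and 8 came from COX4I1, COX6A1, COX6B1 and COX8A. COX6B2 had 0, 2 and 3 counts in control and 7, 3 and 12 in C3 libraries, and COX7B2 1, 2 and 8 in control and 9, 13 and 9 in C3 libraries, too few for a comparison.

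The other forms that were detected did not pass the test. COX7B had a log2 fold change of -0.21 (adjusted p = 0.070), COX7A2 of -0.17 (adjusted p = 0.11), NDUFA4 of -0.16 (adjusted p = 0.092) and COX6A1 of -0.06 (adjusted p = 0.58). COX7A2L, a relative of subunit 7A that helps to join complexes III and IV into supercomplexes, was at 1213 ± 113 in control and 1235 ± 62.2 in C3 libraries. Within libraries, the log2 ratio of COX7A2L to COX7A2 was -1.25, -1.31 and -1.33 in control and -1.18, -0.97 and -1.17 in C3 libraries. The difference was 0.19, for which an exact permutation test (two-sided) gave p = 0.1, its lower limit with 3 libraries in each group. NDUFA4L2, a relative of NDUFA4 known as a hypoxia-induced gene, was at 30.6 ± 7.42 and 30.1 ± 1.6 (SD, n = 3 each). COX5A and COX5B had values of -0.16 and -0.17, COX7C of -0.09 and COX6C of 0.03.

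CYCS, cytochrome c itself, had 4479, 4455 and 5212 in control and 4557, 5145 and 5264 in C3 libraries. The groups overlapped, and the change of 0.08 on the log2 scale had a 95% interval of -0.06 to 0.22 (adjusted p = 0.46).

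Complex V, the ATP synthase, had 17 of 19 genes tested, of which 4 fell (ATP5MC2, ATP5F1A, ATP5F1B and ATP5PB), at a median of -0.14 (-0.083 without C3 replicate 2). The number was 9 without C3 replicate 1, 2 without control replicate 3, and 1 without control replicate 2, C3 replicate 2 or C3 replicate 3. ATP5F1B, the catalytic beta subunit of the F1 head and the most abundant of all 91 mRNAs per length, had 36220, 37058 and 37845 in control and 34294, 30831 and 29875 in C3 libraries. ATP5F1A, the alpha subunit beside it, had 25805, 26650 and 27524 in control and 24728, 21461 and 22124 in C3 libraries. Both had groups apart and log2 fold changes of -0.23 (SE 0.069 and 0.068, adjusted p of 0.021 and 0.019).

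Among the other F1 subunits, ATP5F1C (gamma, the rotating axle) was at -0.14 (adjusted p = 0.14). ATP5F1D (delta) had -0.15 and ATP5F1E (epsilon) -0.04, neither called. ATP5PB, the stator subunit b that holds the head still, went from 7385 ± 512 to 6477 ± 47.6 (SD, n = 3), a log2 fold change of -0.19 (adjusted p = 0.036), with groups apart.

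The stator subunits ATP5PO (-0.15) and ATP5PF (-0.01) were not called, nor was ATP5PD, subunit d, which had 1257, 1356 and 1278 in control and 1517, 1263 and 1610 in C3 libraries. Its log2 fold change of 0.18 had an unadjusted p-value of 0.029 and an adjusted one of 0.11. Of the 5 tested membrane subunits outside subunit c (ATP5ME, ATP5MF, ATP5MG, ATP5MJ and ATP5MK) none was called by edgeR, with values from -0.15 to 0.19 and 1 of them lower at an unadjusted p-value below 0.05. ATP5ME, at 101 counts, shares 61.3% of its exon bases with a gene on the opposite strand. ATP5MGL and the readthrough genes ATP5MF-PTCD1 and NDUFC2-KCTD14 had 1, 1 and 0 counts.

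**Figure D4:**
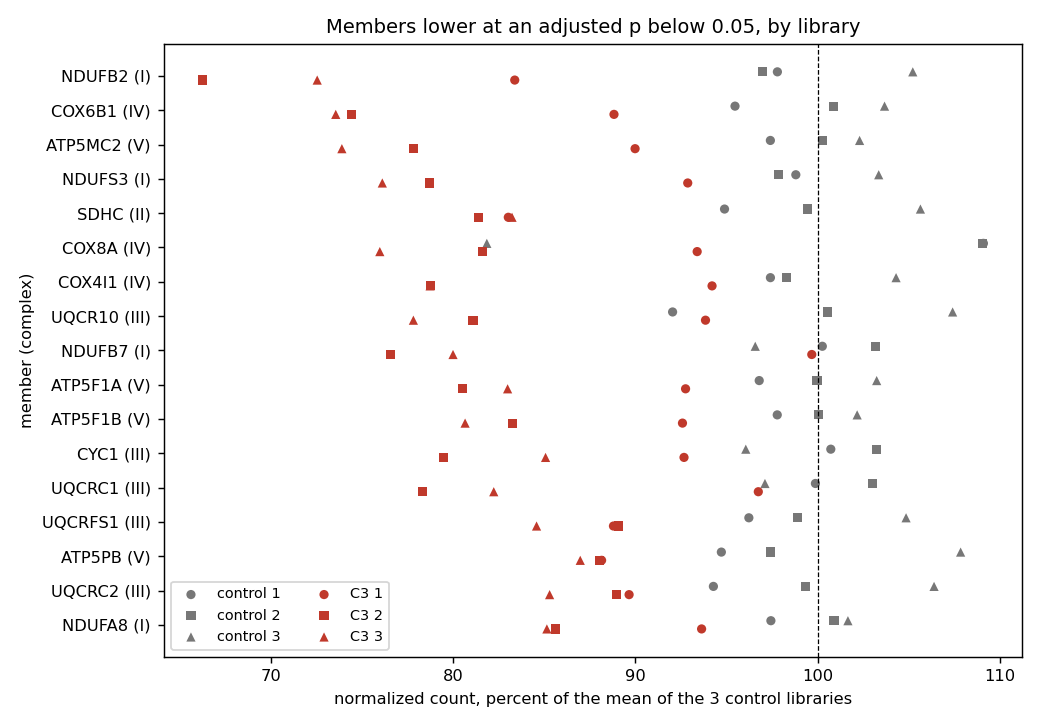
Normalized counts of 17 of the 18 subunits that fell, in each library, as a percent of the mean of the 3 control libraries (grey, control; red, C3; circles, squares and triangles for replicates 1, 2 and 3). In 15 of the 17 rows C3 replicate 1 is the highest of the C3 libraries, and in 14 rows the groups do not overlap.

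Subunit c, which forms the turning ring in the membrane, is made from 3 genes whose proteins differ in the import sequence that is cut off and end in the same 77 residues. The coding ends of ATP5MC1 (chromosome 17), ATP5MC2 (chromosome 12) and ATP5MC3 (chromosome 2), read from the GENCODE 44 models on GRCh38, are shown to let these mRNAs be told apart. They run 5′ to 3′ on the coding strand through the stop codon, and capitals mark the 58 of 234 positions at which the 3 are not all the same.
ATP5MC1: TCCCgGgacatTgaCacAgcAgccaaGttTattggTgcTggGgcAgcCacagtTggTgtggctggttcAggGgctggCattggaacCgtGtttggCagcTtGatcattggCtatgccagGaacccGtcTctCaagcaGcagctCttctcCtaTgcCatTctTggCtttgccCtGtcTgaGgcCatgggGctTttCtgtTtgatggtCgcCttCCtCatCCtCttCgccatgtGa
ATP5MC2: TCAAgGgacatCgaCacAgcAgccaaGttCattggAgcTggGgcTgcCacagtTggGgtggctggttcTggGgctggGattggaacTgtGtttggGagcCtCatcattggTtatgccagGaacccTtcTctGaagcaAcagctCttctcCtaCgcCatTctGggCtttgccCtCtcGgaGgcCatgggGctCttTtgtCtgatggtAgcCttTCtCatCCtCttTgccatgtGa
ATP5MC3: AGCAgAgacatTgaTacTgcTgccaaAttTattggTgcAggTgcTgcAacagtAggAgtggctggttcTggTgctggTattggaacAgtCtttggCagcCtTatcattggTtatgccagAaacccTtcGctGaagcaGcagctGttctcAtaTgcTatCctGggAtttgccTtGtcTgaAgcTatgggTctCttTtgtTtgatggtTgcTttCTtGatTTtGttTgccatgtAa
Over these bases ATP5MC1 and ATP5MC2 were 88.5% identical and ATP5MC3 was 79.9% identical to each of them.

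ATP5MC2 (ENSG00000135390) had 5871, 6044 and 6166 normalized counts in control and 5423, 4691 and 4453 in C3 libraries, all C3 libraries below the controls. Its log2 fold change was -0.31 (SE 0.069, adjusted p = 0.0019). ATP5MC1 had 5245, 5388 and 5180 in control and 5081, 4281 and 4612 in C3 libraries, also apart, with -0.18 and an adjusted p-value of 0.056. ATP5MC3 had 5865, 6190 and 6238 in control and 6022, 5224 and 5475 in C3 libraries, which overlap, with -0.13 and an adjusted p-value of 0.17. Each had a lower mean after C3, and only ATP5MC2 was called.

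Ratios within a library do not depend on how libraries are scaled. The log2 ratio of ATP5MC2 to ATP5MC1 was 0.163, 0.166 and 0.251 in control and 0.094, 0.132 and -0.050 in C3 libraries, a difference of -0.13 (exact permutation p = 0.1). For ATP5MC2 against ATP5MC3 the difference was -0.18 (exact permutation p = 0.1), and for ATP5MC1 against ATP5MC3 it was -0.05 (exact permutation p = 0.3). These are 3 of 6 such ratios computed, and none could reach a p-value under 0.1. Per length, ATP5MC2 gave 47.6 ± 0.68% of subunit c mRNA in control and 45.0 ± 1.59% in C3 libraries (SD, n = 3), ATP5MC1 40.7 ± 0.85% and 42.3 ± 1.33%, and ATP5MC3 11.8 ± 0.21% and 12.6 ± 0.30%.

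**Figure D5:**
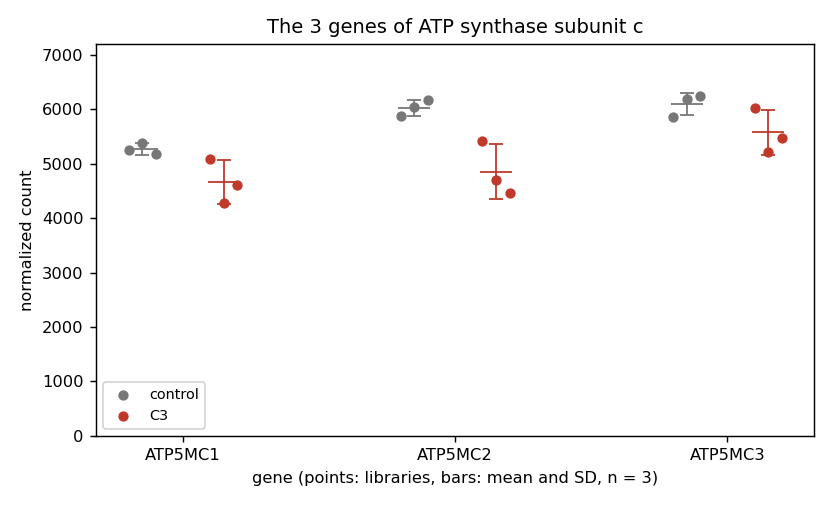
Normalized counts (vertical axis, from 0) of the 3 subunit c genes in control (grey) and C3 (red) libraries; points are libraries and bars the mean and SD (n = 3). ATP5MC2 has C3 points of 5423 or less and control points of 5871 or more, and the points of ATP5MC3 overlap.

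To compare levels between genes, counts were divided by the length of the canonical transcript and given as TPM, a scale of levels and not of differences. In control libraries the highest were ATP5F1B with 2169 ± 14.6 TPM, COX6B1 with 1523 ± 26, UQCRH with 1056 ± 62.8 and COX4I1 with 1039 ± 14.0 (SD, n = 3). COX7C (991 ± 106), ATP5MC2 (982 ± 6.23) and COX8A (937 ± 169) came next. ATP5F1B and COX6B1 stood apart from their neighbours beyond their spread, whereas UQCRH and COX4I1, as well as COX7C, ATP5MC2 and COX8A, overlapped with their neighbours in this order. COX4I1 and UQCRH lay above ATP5MC2 in all 3 control libraries. The highest of complex I was NDUFB7 (788 ± 42.9 TPM) and of complex II SDHB (306 ± 16.1 TPM). Median levels were 123 TPM in complex I, 146 in complex II, 227 in complex III, 452 in complex IV and 289 in complex V.

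Summed over a complex, levels of complexes III, IV and V were lower in all C3 than in all control libraries. Complex III summed to 3616 ± 47.2 TPM in control and 3419 ± 125 TPM in C3 libraries, complex IV to 6741 ± 102 and 6313 ± 196 TPM, and complex V to 7915 ± 29.5 and 7606 ± 155 TPM (SD, n = 3). For complex I the sums overlapped, at 7090 ± 110 and 6970 ± 283 TPM, and so did those of complex II, at 715 ± 17.4 and 702 ± 23.3 TPM. Summed as normalized counts, complex II did not overlap (10053 to 10840 in control and 9235 to 9739 in C3 libraries), complex I still did (54066 to 57657 and 47810 to 54462), and complexes III, IV and V were again lower in all C3 libraries. These sums are a description, without a test.

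Fold change went with abundance among the subunits. Across the 81, Pearson's r between the log2 fold change and the log2 mean normalized count was -0.68, and -0.56 over the 78 with a mean count of at least 50, against -0.25 across all tested genes. These correlations are across genes that share the same 6 libraries, so genes are no independent replicates. The subunits are abundant (median 2027 normalized counts, against 344 for all tested genes) and their canonical transcripts are short (median 804 bases against 3083). Across the 81, r of the log2 fold change was -0.024 with GC content and -0.065 with transcript length. A correction for length in each library left 13 subunits lower, 11 of the 18 among them, and 1 higher (ATP5PD). With a correction for GC content 26 were lower, and 27 with the replicate block added. Both included the 18, and in both 1 was higher (ATP5PD). Of all tested genes, 9.22%, 12.8% and 11.4% were lower in these fits, in this order.

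Promoters of respiratory chain genes are known for binding sites of NRF1, of ETS factors such as GABP, and of YY1. Promoter windows of 300 bases, from 250 before to 50 after the RefSeq start on GRCh38.p14, were found for 71 of the 91 genes. The windows of the 3 subunits with the largest falls and a call in every fit are printed, 5′ to 3′ on the strand of the gene. They are chr7:140696458-140696757 (forward strand) for NDUFB2, chr19:35648073-35648372 (forward) for COX6B1 and chr12:53676034-53676333 (reverse) for ATP5MC2. Capitals mark letters of NRF1 (GCGCANGCG), ETS (CCGGAAG) or YY1 (AAGATGGC), searched on both strands.
NDUFB2: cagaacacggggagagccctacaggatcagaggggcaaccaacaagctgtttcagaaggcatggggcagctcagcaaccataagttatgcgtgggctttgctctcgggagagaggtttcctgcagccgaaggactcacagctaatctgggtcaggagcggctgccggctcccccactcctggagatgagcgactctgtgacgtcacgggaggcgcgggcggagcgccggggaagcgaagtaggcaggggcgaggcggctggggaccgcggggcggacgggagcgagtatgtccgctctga
COX6B1: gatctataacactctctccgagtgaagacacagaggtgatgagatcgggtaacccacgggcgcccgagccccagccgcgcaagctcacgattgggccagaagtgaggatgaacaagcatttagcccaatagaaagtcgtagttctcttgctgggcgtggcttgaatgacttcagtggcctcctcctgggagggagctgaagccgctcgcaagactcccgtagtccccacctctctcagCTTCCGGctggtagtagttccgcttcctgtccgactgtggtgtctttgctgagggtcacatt
ATP5MC2: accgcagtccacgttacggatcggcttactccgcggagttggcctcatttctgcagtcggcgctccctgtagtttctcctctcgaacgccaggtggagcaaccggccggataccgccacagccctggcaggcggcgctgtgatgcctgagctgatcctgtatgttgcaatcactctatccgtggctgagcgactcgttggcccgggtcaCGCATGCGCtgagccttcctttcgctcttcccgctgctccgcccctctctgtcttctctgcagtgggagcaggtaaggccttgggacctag
COX6B1 held the ETS letters and ATP5MC2 the NRF1 letters, each on the opposite strand, and NDUFB2 held none of the 3 motifs in this window.

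The NRF1 letters stood in 22 of the 65 tested subunits with a window (33.8%), in 14.5% of the 11097 tested genes with one and in 8.05% of all 27305 windows. The ETS letters stood in 20 of 65 (30.8%), beside 18.7% of tested genes and 10.7% of all windows. For YY1 the numbers were 10 of 65 (15.4%), 5.27% and 3.03%. A GC box (GGGCGG, both strands) stood in 60.0% of the subunits, 69.2% of tested genes and 44.6% of all windows. Matches of different motifs were counted separately where they overlap.

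Of the 14 subunits that fell and had a window, 5 held the NRF1 letters, 5 the ETS letters and 2 the YY1 letters. A GC box stood in 11 of the 14 (78.6%), beside 60.0% of the tested subunits with a window, a difference that was not tested. The median log2 fold change was -0.13 for tested subunits with the NRF1 letters and -0.12 for those without, and -0.096 with and -0.14 without the ETS letters. A match is a description of letters and not of a binding site.

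The mRNAs of these factors were measured too, in a list of 20 regulators of mitochondrial biogenesis, of which 18 were tested. NRF1 had 407, 409 and 394 normalized counts in control and 406, 415 and 412 in C3 libraries, a log2 fold change of 0.03. GABPA, with -0.14, and YY1, with 0.02, were not called (adjusted p of 0.26 and 0.83 by edgeR). In the list 3 genes rose and 0 fell, with 1 lower at an unadjusted p-value below 0.05 and a median of 0.0041, and without C3 replicate 3 only 1 rose. Over all tested genes 11% rose, so 3 of 18 is near the background. The 3 were ESRRB, an orphan nuclear receptor (0.54, adjusted p = 0.0035), PPARD, a fatty acid sensor (0.27, adjusted p = 0.025), and PPARGC1B, a coactivator of mitochondrial genes (0.26, adjusted p = 0.012). PPARGC1A was near 0.

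The 13 subunits encoded in mitochondrial DNA moved further. Of them 10 fell (76.9%, beside 8.77% of all tested genes), 7 by both gates, and 1 rose, with a median log2 fold change of -0.44. MT-CO1, the catalytic subunit of complex IV, had 159718, 174781 and 212945 normalized counts in control and 137779, 130386 and 111813 in C3 libraries. All C3 libraries lay below all control libraries, and control replicate 3 was the highest by far. The log2 fold change was -0.53 (SE 0.092, adjusted p = 0.0002), beside -0.59 for MT-CO3, -0.45 for MT-CYB of complex III and -0.46 for MT-ND1 of complex I.

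MT-ND3 and MT-ND6 were not called (-0.20 and 0.01). MT-ATP8, whose reading frame overlaps that of MT-ATP6, rose by 0.42 with overlapping groups (adjusted p = 0.024), a call lost without control replicate 1, control replicate 2, C3 replicate 2 or C3 replicate 3, while MT-ATP6 fell (-0.37, adjusted p = 0.0050). DESeq2 called 5 of the 13 lower and 0 higher. With these 13 genes left out before scaling, 19 nuclear-encoded subunits fell, the 18 among them.

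Of 61 assembly factors, which build the complexes without being part of them, 60 were tested, of which 8 fell (13.3%, beside 8.77% of all tested genes) and 2 rose (beside 11%), at a median of -0.037. The number that fell was 13 without C3 replicate 1, 5 without control replicate 1 and 4 without C3 replicate 3, and 1 rose without control replicate 2 or C3 replicate 3. HIGD2A, needed for complex IV and supercomplexes, had 1166, 1213 and 1249 in control and 807, 813 and 677 in C3 libraries, with a log2 fold change of -0.66 (SE 0.075). Its C3 libraries all lay far below the controls, and no subunit had as large a fall. COX10, which makes the haem of complex IV, fell by 0.37 and ECSIT, a complex I assembly factor, by 0.34 on the log2 scale (adjusted p of 0.0010 and 0.0007). NDUFAF2, a complex I chaperone, and LYRM7, which guides the Rieske protein, rose by 0.47 and 0.44 (adjusted p of 0.015 and 0.0005).

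Of 25 genes of the tricarboxylic acid cycle and pyruvate dehydrogenase, 24 were tested, of which 8 fell (33.3%, beside 8.77% of all tested genes) and 0 rose, at a median of -0.14. The number that fell was 4 without control replicate 2 or C3 replicate 3 and 5 without control replicate 1 or C3 replicate 2. No gene of this list was higher at an unadjusted p-value below 0.05. IDH3A and IDH3G, subunits of isocitrate dehydrogenase, both had -0.32 (adjusted p of 0.0061 and 0.0030), and OGDH, of the step before succinyl-CoA, had -0.28 (adjusted p = 0.0047). CS, citrate synthase, had groups apart at -0.16 but did not pass (adjusted p = 0.073).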

How the data were processed

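RNA of 3 untreated and 3 C3-treated Meg-01 samples was sequenced (NEBNext Ultra kit). By the methods and the processing notes, the authors used fastp for read processing, STAR 2.6.1d for mapping to GRCh38/hg38 and featureCounts 1.5.0-p3 for counting per gene. The deposited values are raw counts for 58735 Ensembl genes, 29753 of them at 0 in every library. Which annotation release, strand and multi-mapping settings served was not given in the sources used here. Every column was matched to a sample by its name.

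A gene was tested if 3 or more libraries had 10 or more counts (15078 genes). Counts were scaled by TMM and compared in edgeR 4.0.16 (R 4.3.3) by its quasi-likelihood test without a block, with Benjamini-Hochberg adjustment over all tested genes. The SE of a log2 fold change was obtained by dividing it by the root of F, and 95% intervals are 1.96 standard errors either side. Symbols, coordinates, lengths and overlaps came from GENCODE 44, and 58207 identifiers matched. Promoter sequences came from RefSeq, using the first listed window of a gene. The methods were tested on simulated data. Replicates differed by more than counting error (chi-square per degree of freedom 2.42 to 8.17), so none was a duplicate. Intervals cover only what the libraries show, and for genes near 50 counts or below the counting error is large.

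Genes named are those past both gates, the 3 largest called changes of complexes I, III, IV and V, SDHA to SDHD, CYC1, CYCS, the highest gene per length of each complex, subunit c genes and paralog sets. All others were named after their values were seen. The subunits, the supporting lists (written from general knowledge) and the marker lists were chosen with earlier results of these data known. Alternatives were DESeq2 1.42.0, RLE factors, library size alone, limma-voom (limma 3.58.1), no count filter or a minimum mean of 50 counts, a replicate block, each library left out, length and GC corrections (loess, span 0.3), mitochondrially encoded genes left out, other gates, and NDUFA4 and NDUFA4L2 placed in complex I. Values of some genes in these lists are not reported here, though the genes stayed in every test and count.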

Additional observations from a re-analysis of the deposited data

How the results depend on the processing

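Of the 18 subunits that fell, 4 were called in all 17 alternative fits. The number called lower was 8 with library size alone and 5 at an adjusted p-value below 0.01, and 4 to 38 with each library left out. Of all tested genes 4.04% were lower with library size alone, and 4.02% to 12.7% with each library left out. The number called higher, 0, became 1 with library size alone, the length correction (both ATP5PD), the GC correction and the GC correction with replicate block (ATP5PD), and was 0 to 1 with each library left out. By both gates the 1 lower subunit became 0 with library size alone and 0 at a fold change above 1.5, and was 0 to 3 with each library left out (COX8A joined NDUFB2 without control replicate 3, ATP5MC2 and COX6B1 joined it without C3 replicate 1, and none remained without C3 replicate 2). With library size alone the median log2 fold change was -0.026, -0.085, -0.11, -0.091 and -0.064 for complexes I to V, each nearer to 0. With each library left out, the numbers that fell were 1 to 12 in complex I, 1 to 2 in II, 0 to 7 in III, 1 to 8 in IV and 1 to 9 in V, and the median of complex I was -0.14 to -0.027. The replicate numbers did not pair the libraries (correlations of deviations 0.021, -0.047 and 0.030), and with the replicate number as a block 23 subunits fell, 18 of them shared.

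For the assembly factors, 1 was higher with DESeq2 and 1 to 3 with each library left out, and 4 were lower with library size alone, 5 without a count filter, 5 with the length correction and 4 to 13 with each library left out. For mitochondrially encoded subunits, DESeq2 gave 0 higher and 5 lower, and each library left out 0 to 1 higher. For the tricarboxylic acid cycle list, 5 were lower with library size alone and 4 to 10 with each library left out. For the regulators, 5 were higher with library size alone, 1 to 4 with each library left out, and 1 lower with the length correction. The number of negative subunits, 64 of 81, was 52 with library size alone and 51 without control replicate 3. Among the 32 named or called subunits, signs turned only for uncalled ones. With library size alone these were COX6A1 (0.011), NDUFA4L2 (0.056), SDHB (0.0022) and UQCRHL (0.00088). NDUFA4L2 was also positive with limma-voom (0.011) and the length correction (0.031), and with each library left out it was -0.20 to 0.15, that of UQCRHL -0.27 to 0.14 and that of COX7A2L -0.011 to 0.10. The cause was not tested.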
